A study of Rattus norvegicus with 10 samples.

Results

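The 9 genes described here belong to the Fc receptor, Tyrobp and Syk signalling system: the adaptor chains Fcer1g and Tyrobp, the kinases Syk, Lyn and Btk, the IgG receptors Fcgr1a, Fcgr2a and Fcgr2b, and the formyl peptide receptor Fpr1. They were chosen by name, with earlier results of these data known. Every probe whose RefSeq accession carried 1 of these symbols was taken. This gave 14 probes for 9 of the 15168 named genes on the array. All 14 probes were well above background on all 10 arrays, so all 9 genes were among the 14711 genes tested. The tissue was the submandibular gland, one of the large salivary glands, and its messenger RNA was read with 1 one-colour Agilent array per rat. Male spontaneously hypertensive rats (SHR) aged 14 weeks, inbred animals whose blood pressure climbs with age, gave 5 arrays, and male Wistar-Kyoto rats (WKY) of the same age, the related strain with normal blood pressure, gave 5. The labels name no treatment. The strains differ in their genomes as well as in blood pressure, and the effects of these cannot be told apart. Array names give the strain and the numbers in the title, as in SHR 3-3.

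Antibody bound to its antigen is sensed on white blood cells by Fc receptors, which grip the constant part of the antibody. The activating receptors have little or no signalling tail of their own and pair with a small membrane chain that carries an immunoreceptor tyrosine-based activation motif (ITAM). Src family kinases such as Lyn phosphorylate this motif, Syk docks on the phosphorylated tyrosines, and Tec family kinases such as Btk, adaptors, phospholipase C and phosphoinositide 3-kinase act after it. In a salivary gland, where most cells are epithelial, these genes are known mainly from resident macrophages, mast cells and other white blood cells. In RNA of a whole gland, fewer cells of a type and less RNA per cell cannot be told apart.

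A level below is the log2 processed signal of a probe minus the 75th percentile of its array, so that 0 is the 75th percentile, and a difference is the SHR mean minus the WKY mean. Levels of different probes depend on the probe and are not set against each other. The 75th percentile of the signal lay between 333 and 648, 94.8% to 97.7% of the 42877 spots of an array were well above background, and 0 spots were saturated. Markers of the labelled tissue were abundant, with a mean level of 7.91 for the kallikrein Klk1 in SHR glands and 7.63 in WKY glands. Arrays scanned in 1 pass were taken as 1 slide: slide 1 held SHR 2-3, 3-1, 3-3 and 3-4, slide 2 held SHR 2-1 with WKY 1-5, 4-1 and 4-2, and slide 3 held WKY 1-2 and 1-3. Slide and strain therefore overlap in large part, and slide 2 alone holds both strains. SHR 3-3 stood apart: 420 of its genes were 2-fold or more under the average of its strain's remaining arrays, where that number was 31 to 45 on the 4 remaining ones.

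On the probe that stood for each gene, Fcer1g, Syk and Fpr1 were lower in SHR glands by 2.26-fold, 2.20-fold and 2.10-fold, and 0 of the 9 genes were higher. With each gene's probes averaged 2 of the 9 passed, Syk no longer among them, and with slide as a block or on slide 2 alone 0 passed. The other 6 genes did not pass the test, with differences between −0.69 for Tyrobp and 0.16 for Fcgr2a. The test was limma on all 14711 genes with Benjamini-Hochberg adjustment and a threshold of 0.05. It called 4.36% of all genes in either direction and 2.85% lower in SHR, against 3 of the 9 genes here. Because the 9 genes were chosen with earlier results of these data known, the shares of all genes are given as a description and not as a test. Of all calls 65.4% were lower in SHR, a share that was 50.6% to 55.9% with the authors' values, with quantile normalisation (with or without normexp) and with scaling to the median, while the same 3 of the 9 genes passed under each of these 4. The median difference of the 9 genes was −0.45 and 8 were negative, while the median of all genes tested was −0.016 and 53.4% of those were negative. The 5 SHR values and the 5 WKY values did not overlap for 4 of the 9 genes, the 3 called ones and Tyrobp, and 7.25% of all genes had strains that did not overlap.

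**Figure D1:**
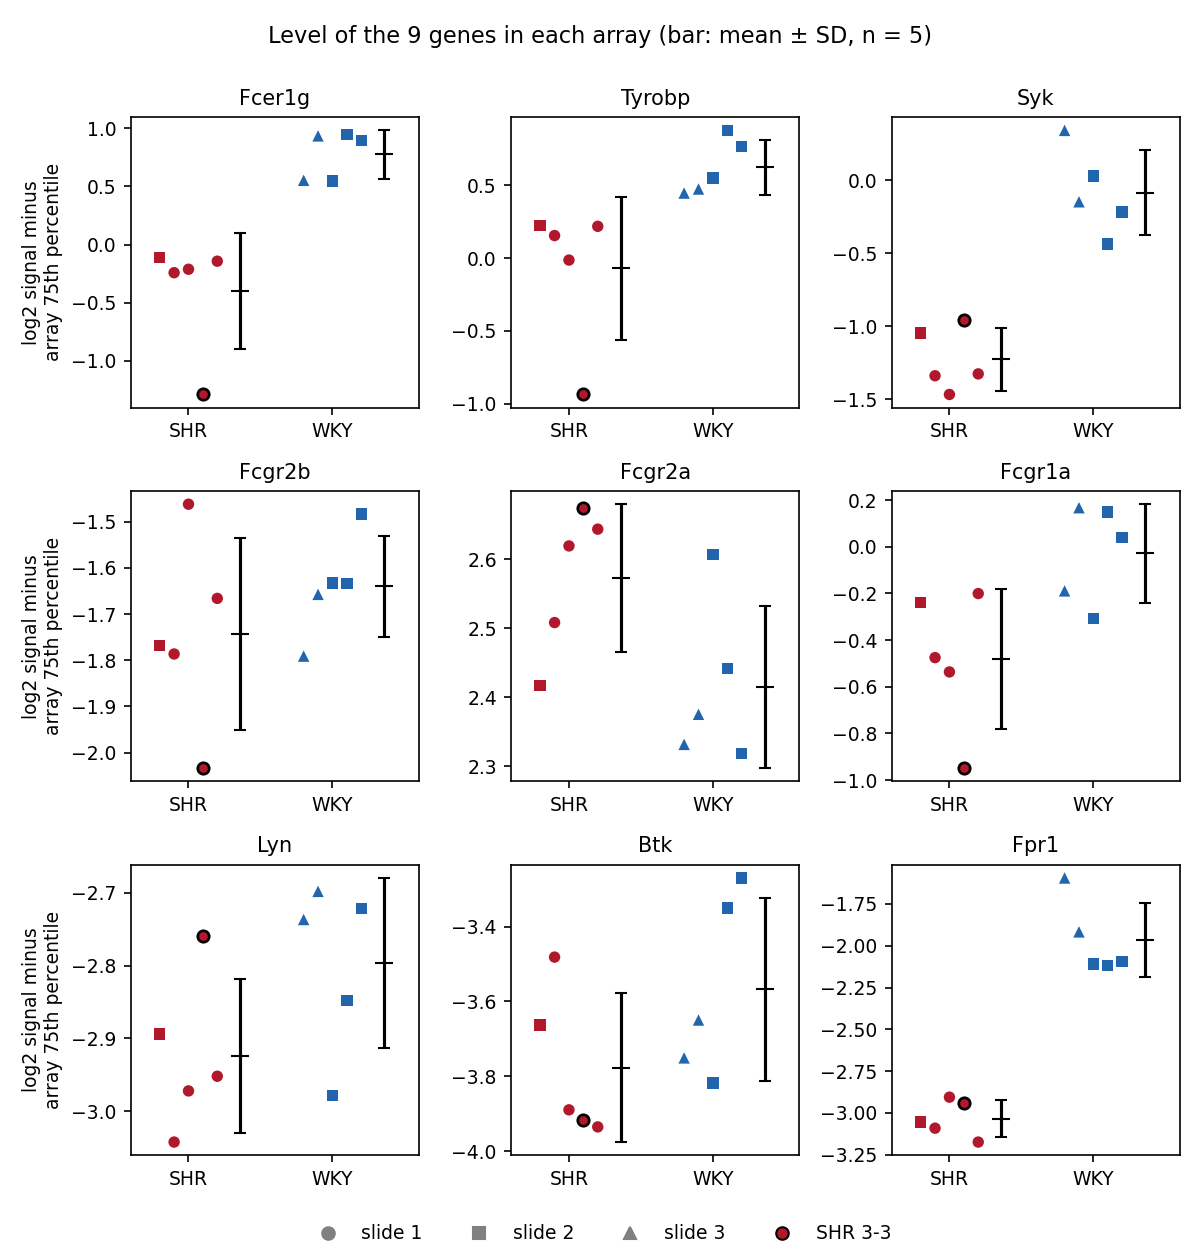
Level of the 9 genes on each array, as log2 processed signal minus the 75th percentile of the array, with SHR left of WKY and the marker shape giving the slide. Bars are mean ± SD of 5 arrays, each panel has its own axis, and the outlined point is SHR 3-3, the lowest array for Fcer1g (−1.29), Tyrobp (−0.94), Fcgr1a (−0.95) and Fcgr2b (−2.03).

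Fcer1g is the ITAM-bearing gamma chain shared by the high-affinity IgE receptor and the activating IgG receptors, and without it these receptors do not reach the cell surface in mice. Its level was −0.11, −0.24, −0.21, −1.29 and −0.14 in SHR 2-1, 2-3, 3-1, 3-3 and 3-4, against 0.55, 0.94, 0.55, 0.95 and 0.89 in WKY 1-2, 1-3, 1-5, 4-1 and 4-2. Every SHR gland lay below every WKY gland, and 4 SHR glands lay within a narrow band with SHR 3-3 far under it. The mean was −0.40 ± 0.50 in SHR and 0.78 ± 0.21 in WKY (SD, n = 5 each), a difference of −1.18 ± 0.21 (SE, limma adjusted p = 0.0071). Without SHR 3-3 the difference was −0.95 (adjusted p = 3.6e-04), and over all 10 fits that left out 1 array it lay between −1.25 and −0.95 and passed in each.

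A second Fcer1g probe for the same RefSeq transcript gave a smaller difference in the same direction. Its level was −1.08, −1.38, −1.42, −1.43 and −1.23 on the SHR arrays in the same order, against −0.75, −0.37, −0.92, −0.65 and −0.59 on the WKY arrays. The strains again did not overlap, and here SHR 3-3 lay close to the other SHR arrays. The difference was −0.66 ± 0.11 (SE), with a limma adjusted p of 0.0063 over all 29266 probes, of which 3.84% passed in either direction. On slide 2 alone, where SHR is the single array SHR 2-1, the first probe differed by −0.91 (adjusted p = 0.224) and the second by −0.36 (adjusted p = 0.714 over all probes).

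Tyrobp, also called DAP12 or Karap, is the other ITAM-bearing adaptor chain and serves receptors such as Trem2 and several natural killer cell receptors. Its level was 0.22, 0.15, −0.01, −0.94 and 0.22 in SHR 2-1, 2-3, 3-1, 3-3 and 3-4, against 0.45, 0.47, 0.55, 0.88 and 0.77 in WKY 1-2, 1-3, 1-5, 4-1 and 4-2. The strains did not overlap, but the lowest WKY gland and the highest SHR glands were near each other and SHR 3-3 was far below all others. The mean was −0.07 ± 0.49 in SHR and 0.62 ± 0.19 in WKY (SD, n = 5 each), and the difference of −0.69 ± 0.20 (SE) did not pass (limma adjusted p = 0.0758). Without SHR 3-3 the difference was smaller, −0.48 ± 0.11 (SE), and passed (adjusted p = 0.0273), while leaving out any of the other 9 arrays gave adjusted p-values up to 0.165 and no call. On slide 2 alone Tyrobp differed by −0.51 without passing.

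Fcer1g and Tyrobp were the members furthest below the other SHR arrays in SHR 3-3, by −1.11 and −1.08 against the mean of the other 4. Fcgr1a lay at −0.59 and Fcgr2b at −0.36 on the same measure, whereas Syk lay at 0.34, Lyn at 0.21 and Fpr1 at 0.11 above that mean. The summed level of the 14 macrophage markers was also lowest in SHR 3-3, at 4.22. The other SHR glands reached 5.70, and the WKY glands lay between 5.21 and 5.84. Most of this sum came from the probes of Lyz2 and Lgals3, which read 3.03 and 2.04 on SHR 3-3. Whether the sum follows macrophages was not tested. The part of this array's RNA quality or cell content in the adaptor values was not tested.

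Syk is the tyrosine kinase that binds phosphorylated ITAMs through its paired SH2 domains and passes the signal on. The brightest of its 3 probes, which stood for the gene, read −1.05, −1.34, −1.47, −0.95 and −1.33 in SHR 2-1, 2-3, 3-1, 3-3 and 3-4, against 0.34, −0.15, 0.03, −0.44 and −0.22 in WKY 1-2, 1-3, 1-5, 4-1 and 4-2. The strains were clearly apart on this probe, and SHR 3-3 was the highest of the SHR arrays rather than the lowest. The mean was −1.23 ± 0.22 in SHR and −0.09 ± 0.29 in WKY (SD, n = 5 each), a difference of −1.14 ± 0.15 (SE, limma adjusted p = 7.7e-04). The call held in all 10 fits that left out 1 array, with differences between −1.23 and −1.03, and was −1.21 without SHR 3-3. On slide 2 alone the difference was −0.84 and did not pass (adjusted p = 0.296).

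The 3 Syk probes, all assigned to 1 RefSeq transcript, did not give the same result. The second probe read −1.81, −1.71, −1.82, −1.28 and −1.85 on the SHR arrays in the same order, against −1.50, −1.72, −1.55, −1.59 and −1.60 on the WKY arrays. Its strains overlapped and differed by −0.10 ± 0.11 (SE, limma adjusted p = 0.657 over all probes, 95% confidence interval −0.35 to 0.14). That interval excludes the difference of the first probe. The dimmest probe read −2.93, −3.03, −3.41, −2.88 and −3.05 on the SHR arrays, against −3.18, −3.39, −3.44, −3.43 and −3.09 on the WKY arrays. It leaned the other way, by 0.25 ± 0.12 (SE, adjusted p = 0.269), with overlapping strains. With the mean of the 3 probes standing for the gene, Syk differed by −0.33 ± 0.11 (SE) and did not pass (adjusted p = 0.104). The lower Syk signal in SHR is thus the reading of 1 probe, and which part of the transcript each probe reads was not examined.

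**Figure D2:**
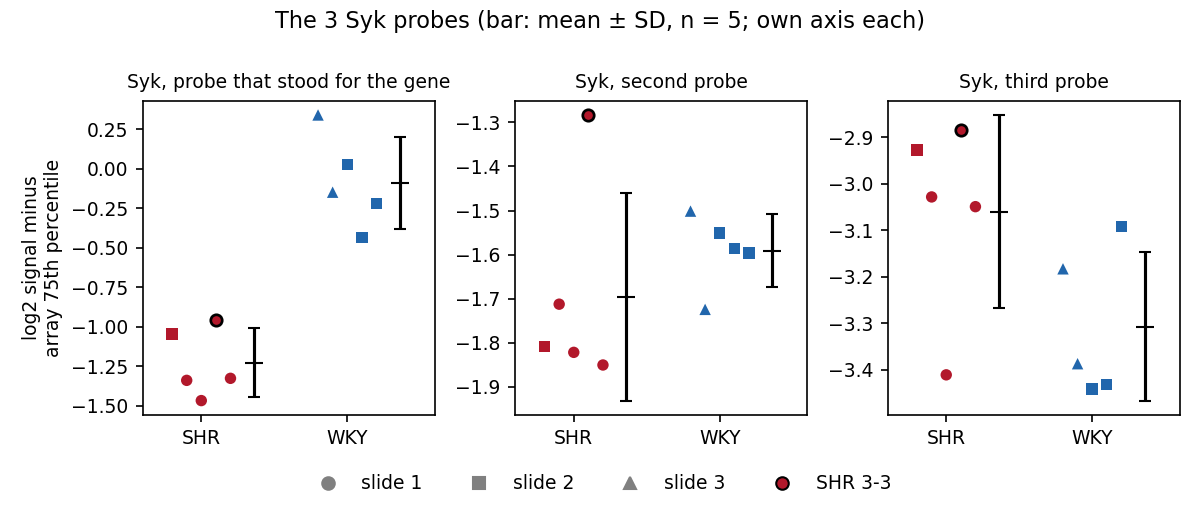
The 3 Syk probes on each array, as log2 processed signal minus the 75th percentile of the array, with SHR left of WKY, 1 panel and axis per probe, and bars of mean ± SD (n = 5). The probe that stood for the gene separates the strains (means −1.23 in SHR and −0.09 in WKY), while on the second (−1.70 in SHR and −1.59 in WKY) and the third (−3.06 in SHR and −3.31 in WKY) the strains overlap.

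Lyn is the Src family kinase that phosphorylates ITAMs in mast cells and B cells and also serves inhibitory receptors. Its level ranged from −3.04 to −2.76 in SHR glands and from −2.98 to −2.70 in WKY glands, almost the same range. The difference was −0.13 ± 0.09 (SE, limma adjusted p = 0.437, 95% confidence interval −0.32 to 0.06), and under another background correction (normexp with quantile normalisation) it was 0.031. Btk, the Tec family kinase of B cells and myeloid cells, ranged from −3.94 to −3.48 in SHR glands and from −3.82 to −3.27 in WKY glands. Its difference of −0.21 ± 0.13 (SE, adjusted p = 0.397) also lay within the spread between arrays, with an interval of −0.50 to 0.08.

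Of the IgG receptors, Fcgr1a, the high-affinity receptor that pairs with Fcer1g, was nearest to a call. Its level was −0.24, −0.48, −0.54, −0.95 and −0.20 in SHR 2-1, 2-3, 3-1, 3-3 and 3-4, against −0.19, 0.17, −0.31, 0.15 and 0.04 in WKY 1-2, 1-3, 1-5, 4-1 and 4-2. The strains overlapped through WKY 1-5, and WKY 1-2 lay just above the highest SHR gland. The difference of −0.45 ± 0.15 (SE) did not pass (limma adjusted p = 0.106, 95% confidence interval −0.77 to −0.13). A second Fcgr1a probe read between −2.66 and −2.55 in SHR glands and between −2.45 and −2.22 in WKY glands without overlap, and differed by −0.24 ± 0.08 (SE, adjusted p = 0.119 over all probes).

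Fcgr2a was the single member with a positive difference. RefSeq lists Fcgr3, Fcgr3a and fc-gamma RIII among its other names, a low-affinity IgG receptor that in mice signals through the Fcer1g chain. Its level was 2.42, 2.51, 2.62, 2.67 and 2.64 in SHR 2-1, 2-3, 3-1, 3-3 and 3-4, against 2.33, 2.38, 2.61, 2.44 and 2.32 in WKY 1-2, 1-3, 1-5, 4-1 and 4-2. The ranges overlapped, and the difference of 0.16 ± 0.09 (SE) did not pass (limma adjusted p = 0.333, 95% confidence interval −0.03 to 0.35). On slide 2 alone it was −0.039. Among RefSeq Fc receptor genes on chromosome 13 of assembly GRCr8, Fcgr2b, Fcgr3a, Fcgr2a, Fcgr2al1, the pseudogene Fcgr2a-ps1 and Fcer1g came in this order. Other genes between them were not looked at. A probe for Fcgr2a may also bind RNA of genes alike in sequence, which was not examined. A separate gene now carries the symbol Fcgr3a, and each probe was assigned by accession, so that older uses of that name are ambiguous.

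Fcgr2b is the inhibitory IgG receptor, whose tail recruits the phosphatase encoded by Inpp5d. The probe that stood for it read −1.77, −1.79, −1.46, −2.03 and −1.67 on the SHR arrays in the same order, against −1.79, −1.66, −1.63, −1.63 and −1.48 on the WKY arrays. SHR glands held both the highest and the lowest value, and the difference was −0.10 ± 0.11 (SE, limma adjusted p = 0.630, 95% confidence interval −0.34 to 0.13). A second probe, spotted 10 times on each array, differed by 0.07 ± 0.15 (SE, adjusted p = 0.827 over all probes).

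Fpr1 is a G protein-coupled receptor for formylated peptides of bacteria and mitochondria on neutrophils and macrophages, and it does not signal through an ITAM. Its level was −3.06, −3.09, −2.91, −2.94 and −3.17 in SHR 2-1, 2-3, 3-1, 3-3 and 3-4, against −1.59, −1.92, −2.11, −2.12 and −2.09 in WKY 1-2, 1-3, 1-5, 4-1 and 4-2. The SHR glands, SHR 3-3 included, lay within a narrow band well below the lowest WKY gland. The mean was −3.03 ± 0.11 in SHR and −1.97 ± 0.22 in WKY (SD, n = 5 each), a difference of −1.07 ± 0.11 (SE, limma adjusted p = 1.5e-04). It passed in all 10 fits that left out 1 array, with adjusted p-values up to 9.2e-04, and the difference was −1.09 without SHR 3-3. The probe was dim, with processed signals of 43.3 to 86.4 on SHR arrays and 114 to 166 on WKY arrays, and with normexp and quantile normalisation the difference was −0.62 and still passed. On slide 2 alone it was −0.95 (adjusted p = 0.0876).

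**Figure D3:**
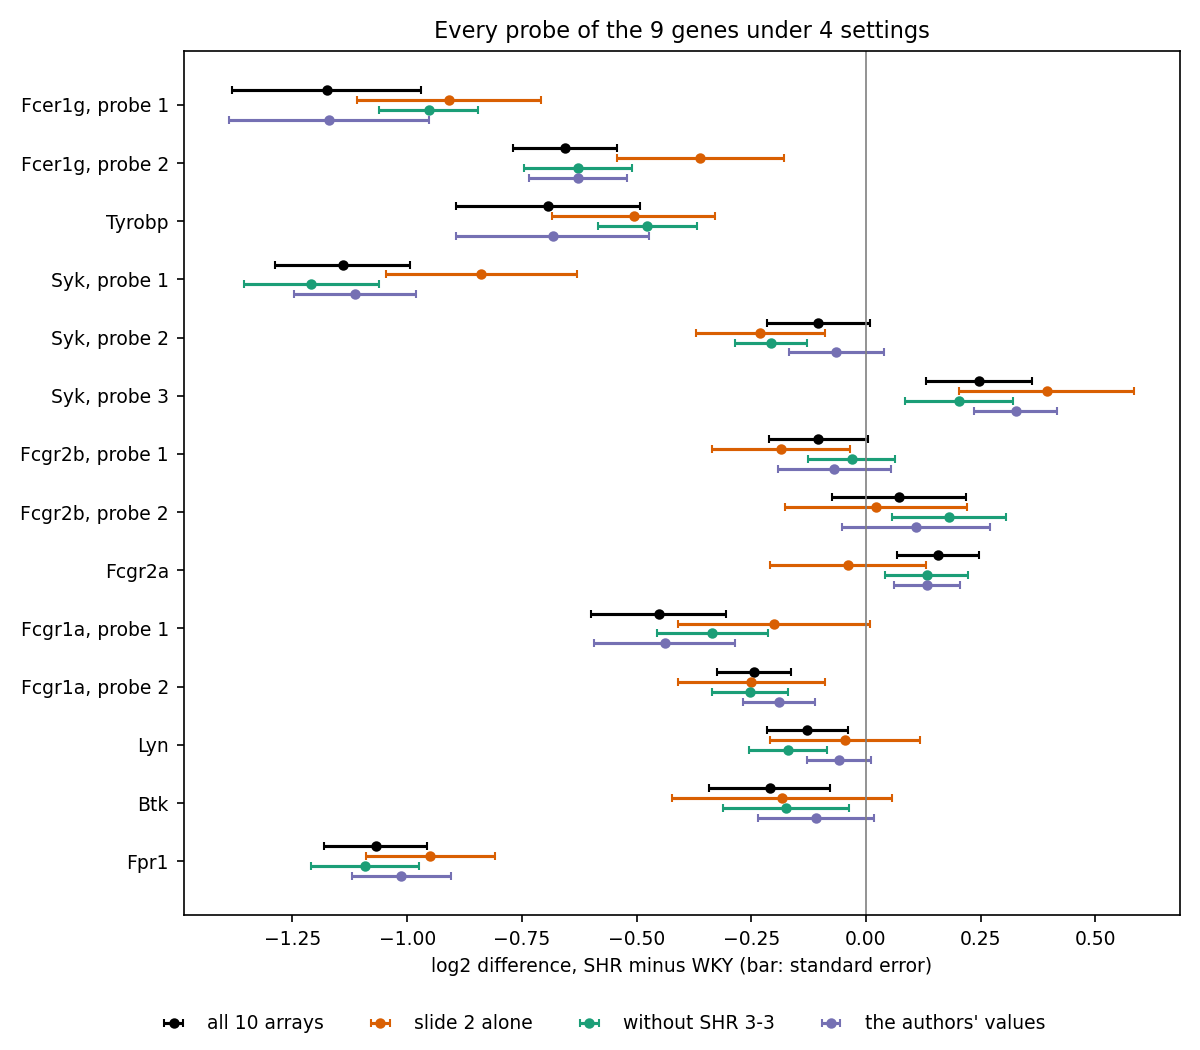
Log2 difference, SHR minus WKY, of all 14 probes of the 9 genes in 4 fits, with bars of 1 standard error: all 10 arrays, slide 2 alone, without SHR 3-3, and the authors' values. Probe 1 is the one that stood for the gene; its differences for Fcer1g (−1.18, −0.91, −0.95 and −1.17), Syk and Fpr1 stay left of 0 in all 4 fits, and only Fcgr2a changes sign, at −0.039 on slide 2.

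With slide as a block in the fit, the strain difference again rests on SHR 2-1 against the 3 WKY arrays of slide 2, and 0 of the 9 genes passed in limma. Fcer1g then had an adjusted p of 0.968, Syk of 0.476 and Fpr1 of 0.0763, and 3 of the 9 genes had an unadjusted p under 0.05, all lower in SHR, where 4.92% of all genes had one. Within slide 2, 4 of the 9 genes had one, again all lower in SHR, where 8.01% of all genes did. The differences themselves were those of slide 2 alone. The authors' deposited log2 values gave −1.17 for Fcer1g, −1.11 for Syk, −1.01 for Fpr1 and −0.68 for Tyrobp in the same test, with calls for the same 3 genes.

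Promoter windows from RefSeq were looked up for the 9 genes, and Syk, Fpr1, Fcgr2a (with 2 windows) and Btk had an entry. The windows of Syk and Fpr1 are shown because these are the called genes with an entry, Syk on 1 of its 3 probes. They hold the 250 bases before an annotated start in GRCr8, on the minus strand at chr17:12813274-12813523 for Syk and chr1:67422521-67422770 for Fpr1. Each start lies inside the annotated span of its gene and is not its outermost one. Capitals mark GAGGAA, the purine-rich core of sites bound by PU.1, a transcription factor of macrophages and B cells, which was searched on both strands.
Syk: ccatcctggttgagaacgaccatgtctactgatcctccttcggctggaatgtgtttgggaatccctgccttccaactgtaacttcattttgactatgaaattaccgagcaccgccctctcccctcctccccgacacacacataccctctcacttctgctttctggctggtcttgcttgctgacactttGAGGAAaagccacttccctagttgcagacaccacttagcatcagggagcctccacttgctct
Fpr1: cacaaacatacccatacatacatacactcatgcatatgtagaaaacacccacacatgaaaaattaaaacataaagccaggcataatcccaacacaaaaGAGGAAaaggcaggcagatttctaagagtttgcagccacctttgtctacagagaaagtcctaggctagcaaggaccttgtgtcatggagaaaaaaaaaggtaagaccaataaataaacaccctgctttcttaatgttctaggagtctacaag
The letters begin 62 bases before the start in Syk and 152 bases before it in Fpr1. Of the 5 windows 3 held them, 1 of Fcgr2a among them, and of all 33469 windows of this length 23.3% did. A match is a description of the sequence and not a binding site, and no binding was measured.

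The genes around the 9 were taken from 5 lists that hold 119 genes in all, of which 96 were tested. These lists too were chosen with earlier results of these data known, so shares of all genes beside them are descriptions. In SHR glands 13 of the 96 were lower and 0 higher, and their median difference was −0.16. That compares with 2.85% of all genes lower, and at an unadjusted p under 0.05 there were 37 lower and 3 higher, where 20.3% of all genes had such a p in either direction. Of the 96 genes 15 passed without SHR 3-3, 5 without WKY 4-1, 7 without WKY 4-2, 8 without WKY 1-2 or without WKY 1-3, and 1 with slide as a block. The list of Fc receptors and ITAM-coupled receptors, which also holds Fcgrt, Fcer2, Fcmr, Itgam and Itgb2, had 2 of 19 genes lower. Its median was −0.15. The IgG receptor Fcgr3a fell by 0.87 ± 0.14 (SE, adjusted p = 0.0030) and the Fc receptor-like gene Fcrl2 by 0.50 ± 0.11 (adjusted p = 0.0257). Trem2, a partner of Tyrobp, differed by 0.18, and Fcer1a, the IgE-binding chain that pairs with Fcer1g, by −0.0034, and neither passed.

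Of the Src and Tec family kinases other than Lyn and Btk, 1 of 12 was lower, where 2.85% of all genes were. The median was −0.08. Bmx, a Tec family kinase known from endothelial and myeloid cells, fell by 0.73 ± 0.17 (SE, limma adjusted p = 0.0306). The myeloid kinase Fgr differed by 0.47 (adjusted p = 0.133) and did not pass. Among adaptors and effectors that act after Syk 3 of 23 were lower, with a median of −0.09. Pik3r1, a regulatory subunit of phosphoinositide 3-kinase, fell by 0.94 ± 0.11 (adjusted p = 3.0e-04), the blood cell GTPase Rac2 by 0.81 ± 0.18 (adjusted p = 0.0233) and the Card9 partner Bcl10 by 0.43 ± 0.11 (adjusted p = 0.0401). The phospholipases Plcg1 and Plcg2 and the exchange factor Vav1 differed by 0.12, −0.13 and −0.02 and did not pass. The sign of Plcg2 rested on SHR 3-3, at −4.35, where the other SHR arrays read −3.01 to −2.59 and the WKY mean was −2.98.

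Inhibitory receptors and phosphatases had 5 lower genes of 25, where 2.85% of all genes were lower, with a median of −0.24. The receptor phosphatase Ptprj fell by 2.04 ± 0.12 (SE, limma adjusted p = 5.3e-07) on the probe that stood for it. A second Ptprj probe differed by 0.28 (adjusted p = 0.150 over all probes), so here too probes of 1 gene disagreed. The inhibitory lectin receptors Clec12a and Clec4a fell by 0.89 ± 0.10 (adjusted p = 3.6e-04) and 1.13 ± 0.25 (adjusted p = 0.0233), and 1 of the 5 SHR arrays did not have Clec4a well above background. With normexp Clec4a differed by −0.35 and still passed, and a filter on all arrays removes it. Ptprc, the leukocyte phosphatase CD45, fell by 0.70 ± 0.17 (adjusted p = 0.0343), and its second probe differed by −0.30 without passing. The B cell receptor inhibitor Cd72, named after its values were seen, fell by 0.56 ± 0.11 (adjusted p = 0.0114). The phosphatase genes Inpp5d and Ptpn6, which act at inhibitory receptors, each differed by 0.05.

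In the list of chemoattractant receptors and the phagocyte oxidase that they activate, 2 of 17 genes were lower, where 2.85% of all genes were. The list median was −0.17. The oxidase subunits Ncf1 and Cyba fell by 0.45 ± 0.10 (SE, limma adjusted p = 0.0193) and 0.43 ± 0.11 (adjusted p = 0.0436). The complement receptor C5ar1 and the platelet-activating factor receptor Ptafr differed by −0.76 and −0.94 and did not pass. Other receptors of this list went the other way without passing, Cmklr1 by 0.27 with strains that did not overlap, Ltb4r by 0.21 and C5ar2 by 0.06. C3ar1 differed by −0.08. Anxa1, a ligand of formyl peptide receptors, differed by −0.17, a sign that rested on SHR 3-3. It read 2.19 there and 3.90 to 4.37 on the other SHR arrays, against a WKY mean of 3.92.

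Leaving out 1 array kept the calls of Fcgr3a, Pik3r1, Ptprj, Clec12a and Cd72 in all 10 fits. Fcrl2, Rac2 and Clec4a did not pass without WKY 1-3, without WKY 4-1 and without WKY 4-2, with adjusted p-values up to 0.0732, 0.0611 and 0.0595. Ncf1 did not pass without WKY 1-2 and without WKY 4-1, Ptprc without SHR 3-4 or any of WKY 1-2, 1-3, 4-1 and 4-2, and Bmx without SHR 3-1 or any of WKY 1-2, 1-3, 1-5 and 4-1. Bcl10 passed in 2 of the 10 fits, those without SHR 2-3 and without WKY 1-5, and Cyba in 1, that without SHR 3-4. On slide 2 alone Ptprj passed (adjusted p = 0.0056) and the other 12 genes did not, all with negative differences.

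**Figure D4:**
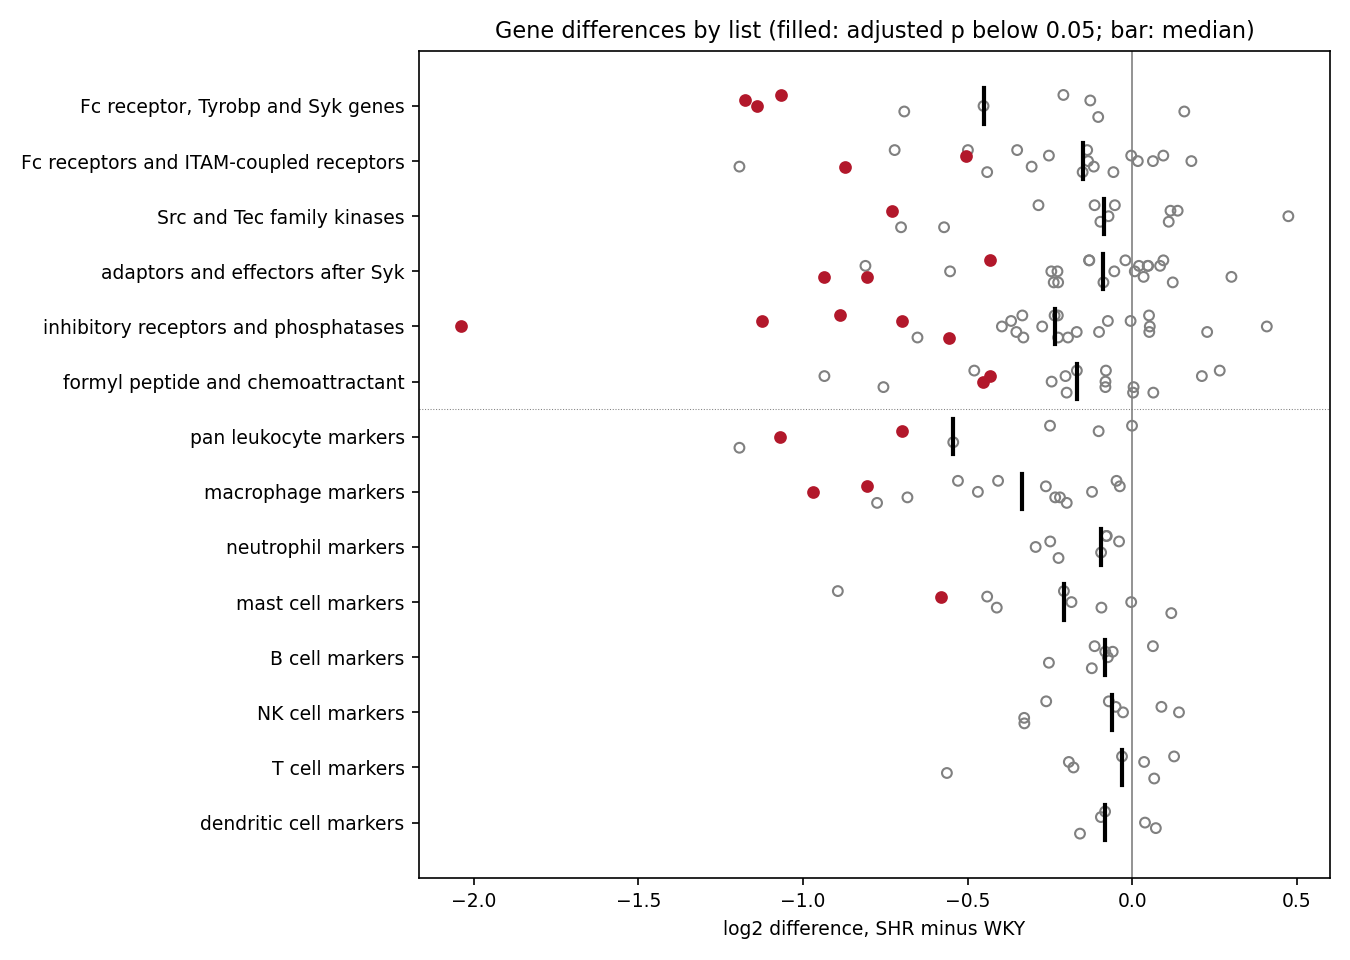
Log2 difference, SHR minus WKY, of each tested gene in the list of 9 genes, the 5 lists of the surrounding pathway (above the dotted line) and 8 lists of cell type markers (below it). Filled points passed the limma test at an adjusted p of 0.05 and bars are list medians. The 9 genes have 3 filled points near −1.1 and a median of −0.45. All filled points lie left of 0, and the neutrophil, B cell, NK cell, T cell and dendritic cell lists have none.

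Some markers of white blood cells were lower in SHR as well. Of 14 macrophage markers 2 were lower and all 14 were negative, with a median of −0.34. The negative sign of Lyz2 and Lgals3 rested on SHR 3-3, where they read 3.03 and 2.04. On the other SHR arrays Lyz2 read 4.32 to 4.73 (WKY mean 4.27) and Lgals3 3.36 to 3.68 (WKY mean 3.44). Of all genes 2.85% were lower and 53.4% negative. At an unadjusted p under 0.05 there were 6 macrophage markers, all lower, where 20.3% of all genes had such a p in either direction. Cd68, a lysosomal protein of macrophages, fell by 0.97 ± 0.17 (SE, limma adjusted p = 0.0067) and kept its call in all 10 fits that left out 1 array. Aif1, an actin-binding protein of macrophages, fell by 0.81 ± 0.18 (adjusted p = 0.0293) and did not pass without any of SHR 2-3, SHR 3-1, WKY 1-3, WKY 4-1 and WKY 4-2. The macrophage genes Csf1r and Adgre1 differed by −0.22 and −0.53 and did not pass, and 13 of the 14 markers were well above background on all arrays.

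Among 7 markers shared by all leukocytes 2 were lower, Ptprc and the tetraspanin Cd53, with a list median of −0.54. At an unadjusted p under 0.05 there were 5, all lower. These counts stand beside 2.85% of all genes lower and 20.3% with such a p in either direction. Ptprc and Itgb2 of this list were already counted among the surrounding genes. Their summed level ranged from 1.93 to 2.32 in SHR glands and from 2.42 to 2.74 in WKY glands, without overlap. Cd53 fell by 1.07 ± 0.28 (SE, limma adjusted p = 0.0492) and among the fits that left out 1 array it passed only without SHR 3-3. It also did not pass with quantile normalisation, median scaling, the authors' values, no filter, or a variance trend (adjusted p up to 0.0640). Of 9 mast cell markers, cells in which Fcer1g carries the IgE signal, Cpa3 fell by 0.58 ± 0.13 (adjusted p = 0.0286), and without SHR 2-3, WKY 1-2, WKY 1-3 or WKY 4-1 it did not pass, nor with normexp, where it was −0.26 (adjusted p = 0.0950). The mast cell summed level ranged from 0.16 to 0.93 in SHR glands and from 0.75 to 1.23 in WKY glands.

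Markers of the other cell types that use these genes gave 0 calls in limma: 7 neutrophil, 7 B cell, 8 natural killer cell, 7 T cell and 5 dendritic cell markers. At an unadjusted p under 0.05 these lists had 0, 1, 2, 2 and 0 genes in the same order, all lower in SHR. Of all genes 20.3% had such a p in either direction. The neutrophil summed level ranged from 2.45 to 3.05 in SHR glands and from 2.83 to 3.29 in WKY glands. S100a8 and S100a9 had differences of −0.078 and −0.040. Most of this sum came from the Elane probe, with mean levels of 2.56 in SHR and 2.85 in WKY. The mean summed levels were 2.80 and 3.06. The sum is thus mainly the reading of 1 probe, and whether it follows neutrophils was not tested. The summed levels also overlapped between strains for the other 4 lists. In SHR glands they ranged from 0.61 to 0.89 for B cells, 0.94 to 1.32 for natural killer cells, 1.77 to 2.29 for T cells and −0.08 to 0.20 for dendritic cells. In WKY glands they ranged from 0.81 to 0.95 for B cells, 1.25 to 1.38 for natural killer cells, 2.09 to 2.47 for T cells and 0.01 to 0.28 for dendritic cells. Lymph node stroma markers, listed because nodes lie against the gland, ranged from 0.21 to 0.38 in SHR and from 0.64 to 1.21 in WKY, with 1 of 6 lower, the chemokine Cxcl13, which fell by 2.99 ± 0.22 (SE, adjusted p = 6.9e-06). Without Cxcl13 the sum over the other 5 ranged from 0.086 to 0.24 in SHR and from 0.10 to 0.39 in WKY and overlapped. Gland epithelium markers ranged from 8.60 to 9.07 in SHR and from 8.53 to 8.64 in WKY. Their median difference was 0.21 and 5 of 14 were negative. At an unadjusted p under 0.05 there were 2 lower and 4 higher. After adjustment 1 of 14 was lower and 0 were higher. This was the secretory protein Smgc, which fell by 4.10 ± 0.35 (SE, limma adjusted p = 2.3e-05). With slide as a block Cxcl13 (adjusted p = 0.0198) and Smgc (0.0077) passed, while Cd68 (0.926), Aif1, Cpa3, Cd53 and Ptprc did not, and on slide 2 alone Smgc alone of these passed (0.0247). The part of any of these cell types in the values of Fcer1g, Syk and Fpr1 was not tested.

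The genes whose pattern over the 10 arrays came nearest to that of each adaptor were found by the root mean square distance of log2 values after each gene's mean was removed. For Fcer1g these were Rtp4 at 0.11, Parvg and Klra5 at 0.14 each, and Cldnd1 and Lgals1 at 0.15 each, and all 5 were lower in SHR by the test, with differences between −1.16 and −0.97. For Tyrobp they were Rac2, Coro1a and Ptprc at 0.12 each, and Rtn4 and Tmem176a at 0.13 each. Of these Rac2 and Ptprc were lower by the test, while Coro1a, Rtn4 and Tmem176a differed by −0.54, −0.55 and −0.83 without passing. The distances are descriptions over arrays that share strain and SHR 3-3. They keep the strain difference, so a gene near an adaptor has a like difference by the way it was chosen. The calls of these genes are therefore not a separate result.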

How the data were processed

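The scans of the 10 arrays, 5 SHR and 5 WKY, were read with Agilent Feature Extraction 11.0.1.1 per the file headers, which gave a background-subtracted processed intensity on a linear scale that the headers do not describe as normalised between arrays. A table deposited by the authors gives 30423 probes on a log2 scale, with a median of 7.19 in all columns. The steps behind it are not given in the sources used here.

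From the log2 processed intensity of an array its 75th percentile was subtracted. Spots marked as outliers were left out (45 missing values among kept probes), spots of a probe were averaged, and probes well above background on at least 5 arrays were kept (29266 of 30367). A RefSeq gene list for assembly GRCr8, matched by accession, named 18005 probes, and 12362 had no name. The brightest kept probe stood for a gene. A list's summed level is the log2 of the sum of its genes' linear levels on an array. Coordinates are given only for the promoter windows.

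SHR was compared with WKY by limma 3.58.1 in R 4.3.3 (lmFit and eBayes, no covariates, two-sided), with Benjamini-Hochberg adjustment over all 14711 genes and a threshold of 0.05. The design text describes separate rats, and the number of arrays limits the precision. On simulated data with the same 14711 genes for SHR minus WKY, 42% of genes changed by 0.5 on the log2 scale were recovered, 90% at 1 and 100% at 2 and 4, with 7 false calls. The alternatives were other background corrections, scalings and filters, the authors' values, probe means, every probe, array weights, a variance trend, slide and first title number as blocks, slide 2 alone, and leaving out each array. All 9 genes were named, and of each surrounding list up to 4 genes past the threshold with the largest differences (2 values where none passed), of each marker list up to 2, and for each adaptor the 5 genes nearest in pattern. The 9 genes, the lists and these rules were chosen with earlier results of these data known. Further genes given as values were picked after their values were seen. Also used were the R package data.table (1.17.8) and, under Python 3.11.15, pandas 2.3.3, numpy 2.4.6 and, for plots, matplotlib 3.10.9.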

Additional observations from a re-analysis of the deposited data

Results flagged for a closer look

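In 64 groups of 5 arrays (each named gene and each probe of the 9 genes, in each strain) the highest or lowest array was compared with its nearest neighbour by Dixon's ratio, with a critical value of 0.71. Chance marks about 1 in 20 such groups, and 8 were marked. In 7 of these the array was SHR 3-3. It was the lowest SHR array for Fcer1g at −1.29, with the next at −0.24, and for Tyrobp at −0.94, with the next at −0.01. It was the highest SHR array for the second Syk probe at −1.28, with the next at −1.71. Among the surrounding genes and cell type markers it was the lowest SHR array for Bmx at 0.54, Rac2 at −0.99, Ptprc at −2.57 and Cd53 at −2.32. The next arrays lay at 1.09, −0.15, −1.83 and −0.83. The remaining one was Cyba, for which WKY 4-1 was the highest WKY array at 1.04, with the next at 0.80.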

How the results depend on the processing

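The call count of 3 of the 9 genes stayed within 1.5 times under the other background correction, scalings, filters, probe rules, weights and variance settings and in each fit that left out 1 array (3 to 4 genes), and it was 2 with the mean of all probes, where Syk was lost. It was 0 with slide as a block and 0 on slide 2 alone, where 3 and 4 genes had an unadjusted p under 0.05 in limma (4.92% and 8.01% of all genes), 6 with slide as a random effect and 5 with the first title number as a random effect. Tyrobp (adjusted p = 0.0044 and 0.0237) and Fcgr1a (0.0064 and 0.0347) passed in both random-effect fits and Fcgr2a (0.0485) in the first, where the estimated correlations were negative (−0.19 and −0.16). The sign turned for Lyn with normexp (0.031) and for Fcgr2a with slide as a block (−0.039) and on slide 2 alone (−0.039). In the order slide as a block, slide 2 alone, slide random and title number random, the called genes among all tested were 44, 52, 3448 and 1780 instead of 641, and among the 96 surrounding genes 1, 1, 45 and 32 instead of 13. With every probe as a feature 1123 of 29266 passed, 4 of them probes of the 9 genes. Leaving out 1 array gave 343 (without WKY 1-3) to 724 (without SHR 3-3) calls among all genes, with 371 without WKY 1-2 and 416 without WKY 4-1, and 5 (without WKY 4-1) to 16 (without SHR 2-1) among the surrounding genes, with 8 without WKY 1-2 or 1-3 and 7 without WKY 4-2. The cause of these shifts was not tested. Of the surrounding genes, Fcrl2 did not pass with quantile normalisation, with normexp or with the authors' values (adjusted p up to 0.0725), Ptprc with quantile normalisation, the authors' values or the mean of its probes (up to 0.0571), and Cyba with normexp or median scaling (up to 0.0593). The mean of both Ptprj probes was −0.88. No paired analysis was possible because the strains share no replicate numbers in the labels. With normexp the dim probe of Fpr1 gave −0.62 and that of Btk −0.084.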

Other observations

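Fcgr3a, which had −1.63, −1.80, −1.75, −1.85 and −1.66 in SHR 2-1, 2-3, 3-1, 3-3 and 3-4, against −1.15, −0.67, −1.25, −0.58 and −0.66 in WKY 1-2, 1-3, 1-5, 4-1 and 4-2, separated the strains without SHR 3-3 standing apart. Fcgr2a and Fcgr2b, the nearest Fc receptor genes on either side of Fcgr3a on chromosome 13, overlapped between the strains. A test of the difference between these genes was not run. Oscar, a receptor that pairs with Fcer1g, and Itgb2, an integrin chain of leukocytes, differed by −0.72 (limma adjusted p = 0.0999) and −1.19 (adjusted p = 0.0641) and did not pass. Itgb2 was well above background on 4 of the 5 SHR arrays. It read −4.72 on SHR 3-3 and between −2.97 and −2.72 on the other SHR arrays.

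Syk and Ptprj were alike in that the brightest probe fell in SHR by 1.14 and 2.04 on the log2 scale, while the other probes of these genes did not pass. Both Fcer1g probes were lower in SHR, and both Aif1 probes fell, by 0.81 and 0.87. The reason for the disagreement between probes of Syk and of Ptprj was not tested.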
